A study of Mus musculus with 6 samples.

Results

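The levels of 7 hypothalamic neuropeptide genes, Agrp, Hcrt, Pmch, Oxt, Avp, Trh and Cartpt, and of the transcription factor gene Nkx2-1 were followed in RNA sequencing libraries of mouse brain cortex. These 8 genes, of 23366 in the table, were chosen by name, and Agrp and Hcrt were selected on their measured difference between the same control and depleted mice, so that the comparison of the groups is a description for all 8 and carries no test. Each group held 3 mice on the C57BL/6 background, 1 library per mouse. The depleted mice (A4, A5 and A6) were CX3CR1-CreERT2+/- iDTR+/-, and the controls (A1, A2 and A3) were littermates that were CX3CR1-CreERT2+/- without the receptor allele. CX3CR1-CreERT2 is a tamoxifen-inducible Cre recombinase under the promoter of Cx3cr1, a chemokine receptor gene of microglia and other myeloid cells. In iDTR mice the recombinase removes a stop sequence ahead of the diphtheria toxin receptor, after which the toxin kills the cells that carry it. Both groups therefore share the Cre allele, and the tissue was taken on day 10 after depletion. The study reports that most microglia of the brain were lost soon after the toxin and had repopulated by the time of sampling. The depleted mice are therefore mice sampled after this return, and not mice without microglia. Both genotypes were injected with tamoxifen according to the study's methods. The mice were matched for age and sex according to the study's methods, the labels give neither, and whether the controls of this experiment received the toxin is not stated in the sources used here.

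All 8 genes are known from the hypothalamus, a region that lies at the base of the brain and is not part of the cortex named in the labels. Neuropeptides are cut from longer precursor proteins inside secretory granules and act on receptors, mostly G protein-coupled, of cells that may lie far away. Agrp, made by neurons of the arcuate nucleus, is an antagonist of the melanocortin receptors and promotes feeding. Hcrt encodes the precursor of the orexins (hypocretins), peptides of the lateral hypothalamus that maintain wakefulness, and Pmch encodes melanin-concentrating hormone, made by other neurons of the same area. Oxt and Avp encode the precursors of oxytocin and vasopressin, which neurons of the paraventricular and supraoptic nuclei send to the posterior pituitary. Trh encodes the precursor of thyrotropin-releasing hormone. Cartpt is made in the hypothalamus and also in neurons of several other brain regions. Nkx2-1 is a homeobox factor of the developing hypothalamus, ventral forebrain, thyroid and lung, and stays on in some neurons of the adult brain.

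Levels are given in FPKM, fragments scaled to transcript length and to library size, as deposited after a further scaling between libraries. The cortical excitatory neuron genes Slc17a7 (325.02 to 383.32 FPKM) and Camk2a (548.56 to 642.41 FPKM) were high in all 6 mice, so the labelled tissue was present in each library. From the spacing of the lowest values, the libraries were estimated to hold 11180000 to 20680000 fragments, except A5 with 3520000. Whole multiples of the A5 estimate scored about as well, so how far A5 lies below the others is uncertain. Mice A3, A4 and A5 stood apart from the others. A3 held pituitary RNA, with 3548.51 FPKM of Prl and 1190.79 FPKM of Gh, against at most 30.91 and 10.82 FPKM in any other mouse, and it had 4.74 FPKM of the X-inactivation transcript Xist where the others had 30.86 to 46.66. A4 alone held clear reads of Y-linked genes (5.56 FPKM summed over 4 genes, against at most 0.16 in the others) and had the lowest mean correlation with the other mice over genes (0.972, against 0.9806 to 0.9851). Differences are given below with and without these libraries where they move most, and their part in the results was not tested.

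Sequences are shown for 2 pairs of these genes. Oxt and Avp arose from neighbouring copies of 1 ancestral gene, and their transcripts (537 and 577 bases, GENCODE M21) share an identical run of 127 bases. The run lies in the coding part, from base 156 of the Oxt transcript and base 144 of the Avp transcript, and crosses from exon 1 to exon 2 of 3 in both. It is shown because a 75-base read that falls inside it cannot, without its paired read, be assigned to either gene alone:
Oxt and Avp, shared run: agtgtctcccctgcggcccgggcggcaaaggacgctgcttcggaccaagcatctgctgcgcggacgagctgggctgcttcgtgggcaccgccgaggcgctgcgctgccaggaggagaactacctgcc
Of the 75-base windows of the Oxt transcript, 53 of 463 (11.4%) occur in Avp as well, and 53 of 503 (10.5%) of those of Avp occur in Oxt. These shares are for single reads. The reads were paired, and a pair with a read outside the run may still be assigned. How far reads were assigned to the wrong gene was not measured. Agrp shared 40 of 937 windows (4.27%) with the gene model Gm5914 and Nkx2-1 shared 1.31% of its windows with other gene models, whereas Hcrt, Pmch, Trh and Cartpt shared none.

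The second pair is Hcrt and Pmch, whose levels moved together from mouse to mouse as described below. Whether sequence has a part in this was not tested. The 250 bases before the start of each gene, from RefSeq on GRCm38.p6, are given 5′ to 3′ on the strand of the gene, with the motifs that were found in capitals.
Hcrt, chr11:100762932-100763181, minus strand: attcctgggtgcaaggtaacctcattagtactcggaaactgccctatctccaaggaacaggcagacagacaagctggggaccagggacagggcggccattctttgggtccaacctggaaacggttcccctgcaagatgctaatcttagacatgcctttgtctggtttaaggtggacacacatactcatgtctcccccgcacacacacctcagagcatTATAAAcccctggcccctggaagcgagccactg
Pmch, chr10:88090822-88091071, plus strand: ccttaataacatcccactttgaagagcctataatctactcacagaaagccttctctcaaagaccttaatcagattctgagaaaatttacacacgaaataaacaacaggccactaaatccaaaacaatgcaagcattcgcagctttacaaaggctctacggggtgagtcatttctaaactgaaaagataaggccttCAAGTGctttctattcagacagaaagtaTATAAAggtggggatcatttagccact
3 kinds of motif were searched on both strands, with no overlap between the matches found: the TATA box (TATAAA), the core bound by NK2-type homeobox factors (CAAGTG) and the cAMP response element (TGACGTCA). Hcrt held a TATA box whose first base lay 33 bases before the start. Pmch held a TATA box 27 bases and the NK2-type core 55 bases before the start. A TATA box was found in 12.4% of all 32851 windows of this length and the NK2-type core in 11.6%, so neither is rare. The cAMP response element, present in 1.55% of windows, was found only in Cartpt among the 7 members with a window. A match is a run of letters and not a measured binding site.

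Agrp was higher in all 3 depleted mice than in any control. Its level was 0.20, 0.00 and 0.24 FPKM in controls A1, A2 and A3, against 3.24, 1.26 and 1.99 FPKM in depleted A4, A5 and A6. The controls were at the edge of detection, and the depleted mice, although above them, stayed among the weakly expressed genes, at or below the 25.5th percentile of the genes tested. In bulk tissue, fewer cells of a type and less RNA per cell cannot be told apart, and this holds for every level below. The estimated depths turn these levels into about 2, 0 and 3 fragments in the controls and 29, 3 and 15 in the depleted mice. The 95% Poisson intervals, which cover counting error only, ran to 0.722, 0.219 and 0.701 FPKM in the controls and began at 2.17 FPKM in A4, 0.26 FPKM in A5 and 1.11 FPKM in A6. The intervals of A4 and A6 lay above those of all 3 controls. The interval of A5, the shallowest library by this estimate, overlapped those of A1 and A3 and began just above that of A2. For A2, at 0 fragments, the upper end is a one-sided 95% limit of 3 fragments, which lies lower than a two-sided one would. The difference was 1.42 ± 0.24 (SE, n = 3 against 3) on the scale of log2(FPKM + 1), which understates the change of a gene this low. It was between 1.19 (without A4) and 1.64 (without A5) with any 1 mouse left out, and 1.70 without A3 and A5. No fold is given, since each control was at or under 3 fragments.

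**Figure D1:**
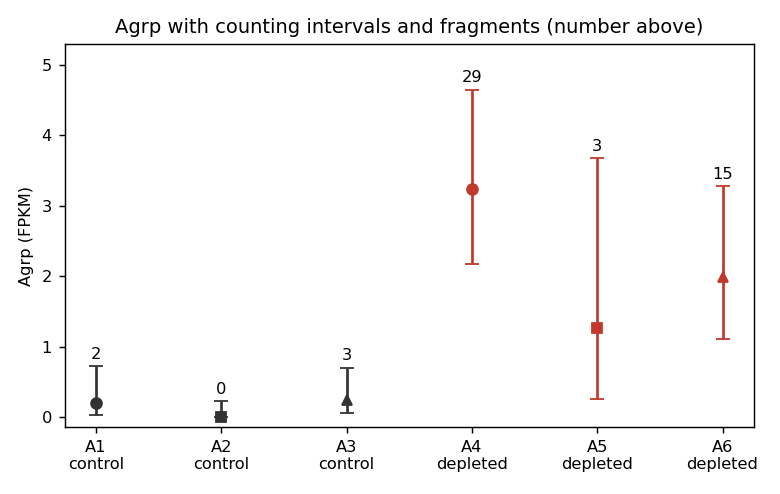
Agrp in each mouse (FPKM, linear axis). Points are the deposited values, bars their 95% Poisson counting intervals (for A2 a one-sided upper limit), and the numbers above are fragments at the estimated depth. The 3 controls lie between 0.00 and 0.24 FPKM and the 3 depleted mice between 1.26 and 3.24 FPKM, with a wide interval in A5.

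Hcrt was lower in all 3 depleted mice than in any control. Its level was 19.68, 18.59 and 28.36 FPKM in controls A1, A2 and A3, against 9.13, 8.12 and 13.34 FPKM in depleted A4, A5 and A6. The highest depleted mouse, A6, stayed below the lowest control, A2. The control mean was 22.2 ± 5.35 FPKM and the depleted mean 10.2 ± 2.77 FPKM (SD, n = 3 each), 2.18-fold lower in the depleted mice. On the log2(FPKM + 1) scale the difference was -1.06 ± 0.20 (SE). These levels rest on about 167, 225 and 300 fragments in the controls and 74, 17 and 87 in the depleted mice. A5 again had the widest counting interval, 4.73 to 13.0 FPKM, which stayed below the intervals of the 3 controls (the lowest began at 16.2 FPKM), while the interval of A6, 10.7 to 16.5 FPKM, reached that of A2. The difference was -0.87 without A3, -0.997 without A4, -0.92 without A5 and -0.74 without both A3 and A5.

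Agrp and Hcrt were the 2 of 8 genes whose groups did not overlap, and these are the genes that had been selected for differing. Among all 14385 genes tested, 17.6% had groups that did not overlap. The other 6 genes overlapped between the groups. Of the 8, 4 had a higher and 4 a lower mean FPKM in the depleted mice.

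**Figure D2:**
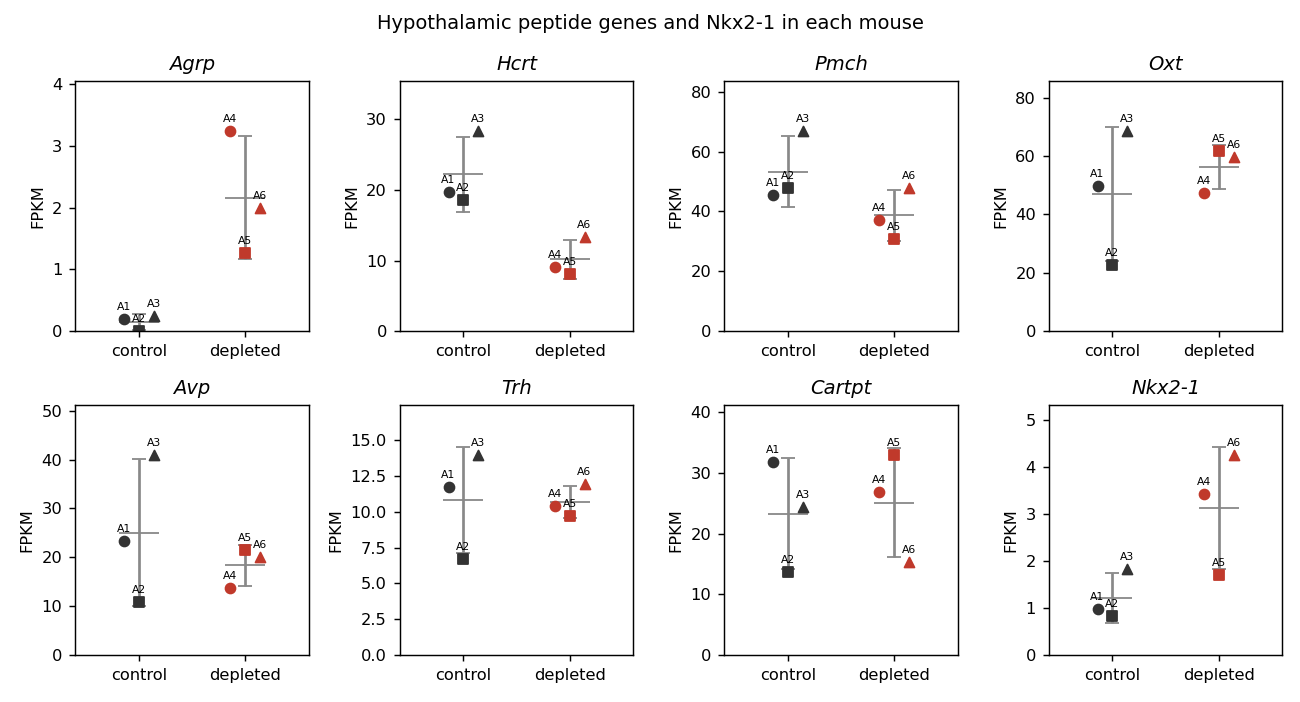
Levels of the 8 genes in each mouse (FPKM, linear axes that start at 0 and differ between panels). Points are mice, and the horizontal marks and bars are the mean ± SD of 3 mice. Agrp and Hcrt are the 2 genes whose groups do not overlap, and Nkx2-1 overlaps through A3 and A5 only.

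Pmch, the other peptide gene of the lateral hypothalamus, was lower on average in the depleted mice but overlapped. Its level was 45.43, 47.69 and 66.86 FPKM in controls A1, A2 and A3, against 37.28, 30.95 and 47.92 FPKM in depleted A4, A5 and A6. A6 exceeded 2 of the 3 controls. The means were 53.3 ± 11.8 and 38.7 ± 8.58 FPKM (SD, n = 3 each), a log2 difference of -0.45 ± 0.18 (SE). It was -0.28 without A3, -0.44 without A4, -0.31 without A5 and -0.14 without both A3 and A5.

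Nkx2-1 was low in every mouse. It stood at 0.97, 0.83 and 1.82 FPKM in controls A1, A2 and A3, against 3.42, 1.70 and 4.26 FPKM in depleted A4, A5 and A6. A4 and A6 lay above all controls, whereas A5 lay below control A3. The means were 1.21 ± 0.536 and 3.13 ± 1.3 FPKM (SD, n = 3 each), 2.59-fold higher in the depleted mice, and the log2 difference was 0.88 ± 0.27 (SE). It rested on about 17 fragments in A5 and on 39 to 134 in the other mice. The difference was 1.07 without A3, 0.80 without A4, 1.15 without A5 and 1.34 without both A3 and A5.

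Oxt and Avp, the magnocellular hormone genes, varied more between mice of a group than between the groups. Oxt stood at 49.72, 22.82 and 68.53 FPKM in the controls and at 47.43, 61.61 and 59.58 FPKM in the depleted mice. Avp stood at 23.28, 10.87 and 40.97 FPKM in the controls and at 13.62, 21.49 and 20.08 FPKM in the depleted mice. In both genes the controls held the lowest mouse, A2, and the highest, A3. The log2 difference was 0.38 ± 0.33 for Oxt and -0.27 ± 0.39 for Avp (SE). The sign of the Oxt difference turned without A2 (-0.063) and stayed without A3 (0.71), A4 (0.49) or A5 (0.31), and that of Avp turned without A3 (0.17) and without A3 and A5 together (0.048). Avp differed by -0.076 without A4 and by -0.39 without A5.

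Trh and Cartpt were close to equal in the mean. Trh was 11.75, 6.73 and 13.99 FPKM in the controls and 10.43, 9.70 and 11.92 FPKM in the depleted mice, all of which lay inside the control range. Its log2 difference was 0.032 ± 0.22 (SE), and its sign turned without A2 (-0.25) or A6 (-0.043), or with array weights (-0.023). Cartpt was 31.80, 13.64 and 24.38 FPKM in the controls and 26.90, 32.98 and 15.28 FPKM in the depleted mice. Its log2 difference was 0.11 ± 0.33 (SE), and its sign turned without A2 (-0.21) or A5 (-0.11), or without A3 and A5 together (-0.040). With 3 mice a group, these errors are too wide to show that the levels were alike.

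FPKM is scaled by transcript length, so the levels of the genes can be set in order. Oxt and Pmch were the highest in 5 of the 6 mice, at the 74.6th to 92.1st and the 81.3rd to 91.8th percentile of the genes tested, and their ranges overlapped. In A5, Cartpt exceeded Pmch. Avp, Cartpt, Hcrt and Trh followed with ranges that overlapped, and Nkx2-1 and Agrp were the lowest in 6 of 6 mice. Agrp lay below Nkx2-1 in each mouse, from 0.20 against 0.97 FPKM in A1 to 3.24 against 3.42 FPKM in A4.

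Several of the genes were high or low in the same mice. Of the 8 genes, 5 had their highest level in A3, the mouse that also held pituitary RNA, and 7 were higher in A3 than in both other controls. A2 had the lowest level of all mice for 6 of the 8. Over the 6 mice the log2 levels of Hcrt and Pmch correlated with r = 0.93, and with r = 0.97 after the mean of each group was removed. Oxt and Avp correlated with r = 0.80 and 0.98, Oxt and Trh with 0.89 and 0.94, and Avp and Trh with 0.85 and 0.89, in the same order. Cartpt had r with the other 7 from -0.43 to 0.56 after the group means were removed. These values describe 6 libraries, which share their dissection and depth with every gene in them, and Oxt and Avp also share the sequence run given above.

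Nkx2-1 resembled different genes within and between the groups. After removal of the group means it followed Pmch (r = 0.93) and Hcrt (r = 0.89). Over all 6 mice with the groups included, r was -0.10 with Pmch and -0.45 with Hcrt, while r with Agrp was 0.88, or 0.66 with group means removed. Agrp and Hcrt themselves moved in opposite directions between the groups (r = -0.78), and with group means removed r was 0.28.

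The ratio of 2 genes within a mouse does not depend on how the library was scaled, and it was examined as well, a choice made after the values were seen. For each Pmch level, Hcrt was lower in the depleted mice. The ratio of Hcrt to Pmch was 0.433, 0.390 and 0.424 in controls A1, A2 and A3, against 0.245, 0.262 and 0.278 in depleted A4, A5 and A6. The values within a group differed far less than the levels themselves, and the groups lay apart. The mean ratio was 0.416 ± 0.0229 in the controls and 0.262 ± 0.0167 in the depleted mice (SD, n = 3 each), a log2 difference of -0.67 with a pooled SD of 0.087, the smallest SD among the 21 pairs of the 7 genes other than Agrp. In A5 the ratio rests on about 17 and 82 fragments, so its counting error is larger than its distance to A4 and A6. Hcrt contributed to the choice of this ratio, and the difference is a description.

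The ratio of Oxt to Avp also lay apart. It was 2.14, 2.10 and 1.67 in controls A1, A2 and A3, against 3.48, 2.87 and 2.97 in depleted A4, A5 and A6. Its mean was 1.97 ± 0.257 in the controls and 3.11 ± 0.33 in the depleted mice (SD, n = 3 each), although the groups of each gene alone overlapped. Of the 21 pairs, 10 had ratios that did not overlap between the groups, among them 5 of the 6 with Hcrt and 5 of the 15 without it. Over all pairs of the 14230 genes tested that were above 0 in every mouse, 17.3% of ratios did not overlap, and of the ratios of Hcrt to each other gene 86.5% did not, so the share with Hcrt is no result about these genes. The pairs share genes and are not independent of each other. The 5 without Hcrt were Oxt to Avp, Pmch to Oxt, and Nkx2-1 with Pmch, Avp and Trh.

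**Figure D3:**
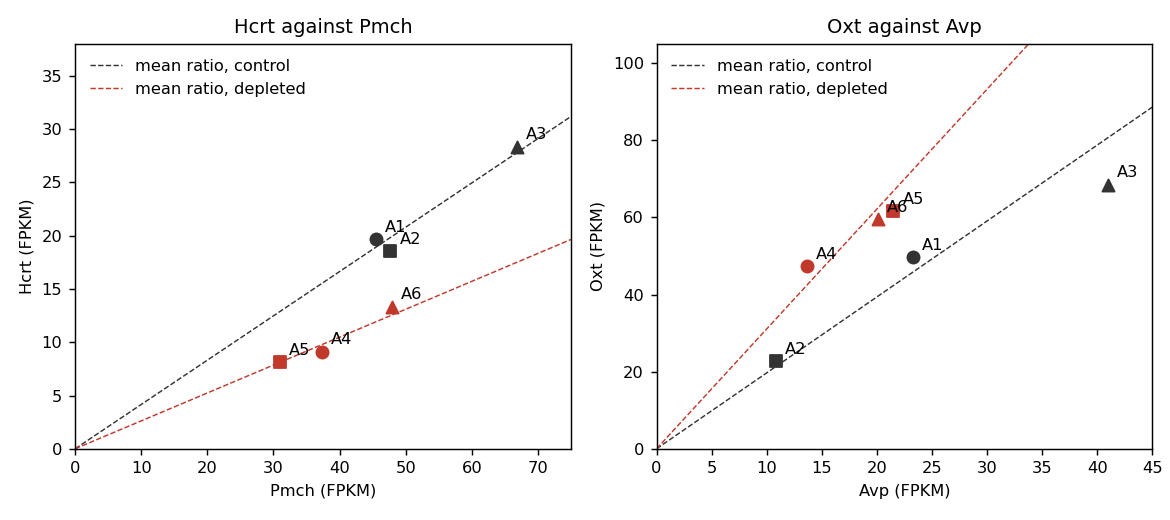
Hcrt against Pmch and Oxt against Avp, 1 point per mouse (FPKM, linear axes). Dashed lines run through 0 with the mean ratio of each group. The controls follow a ratio of 0.416 for Hcrt to Pmch and the depleted mice one of 0.262, and for Oxt to Avp the ratios are 1.97 and 3.11.

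The tests that follow are on genes other than the members, although their lists were chosen with earlier results of these data known. They used limma on log2(FPKM + 1) with Benjamini-Hochberg adjustment over 14385 genes. Among them, 4 genes passed an adjusted p of 0.1 (0.0278%), all higher in the depleted mice, and 1515 genes (10.5%) had an unadjusted p under 0.05. None of the genes in the lists described here passed. The median difference of all genes tested was -0.009.

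The receptors of the peptides were measured in the same libraries. Of 11 receptor genes, 7 passed the minimum mean level of 0.5 FPKM. Of these, 3 had groups that did not overlap, against 17.6% of all genes tested. Hcrtr1, a receptor of the orexins, was 2.66, 1.65 and 2.28 FPKM in the controls and 1.09, 1.40 and 1.17 FPKM in the depleted mice. It was thus lower in each depleted mouse than in any control, with a log2 difference of -0.52 and an adjusted p of 0.384 (limma). Trhr2, a receptor of thyrotropin-releasing hormone, was 1.72, 2.47 and 2.06 FPKM in the controls and 1.08, 1.46 and 1.19 FPKM in the depleted mice (log2 difference -0.46, adjusted p = 0.396 with limma). Oxtr, the oxytocin receptor, was 1.95, 1.83 and 2.0 FPKM in the controls and 2.79, 2.75 and 2.44 FPKM in the depleted mice (log2 difference 0.32, adjusted p = 0.440 with limma). At an unadjusted p under 0.05 (limma) these 3 of the 7 receptors passed, 1 higher and 2 lower, against 10.5% of all genes tested. Over the alternatives the adjusted p ran from 0.243 to 0.892 for Hcrtr1 and Trhr2 and from 0.332 to 0.892 for Oxtr (limma).

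The remaining 4 receptors that were tested overlapped between the groups. Hcrtr2, the other orexin receptor, had a log2 difference of -0.11, and Trhr, the other receptor of thyrotropin-releasing hormone, one of -0.22. Mchr1, the receptor of melanin-concentrating hormone, was the most abundant of the set at 10.5 ± 1.18 FPKM in the controls and 12.8 ± 1.34 FPKM in the depleted mice (SD, n = 3 each; log2 difference 0.26, adjusted p = 0.479 with limma). Mc4r, a melanocortin receptor that Agrp blocks, had a log2 difference of 0.15. Mc3r, Avpr1a, Avpr1b and Avpr2 were under the minimum and were not tested. Avpr1a, a vasopressin receptor, was 0.33, 0.29 and 0.45 FPKM in the controls and 0.16, 0.21 and 0.17 FPKM in the depleted mice, so its groups did not overlap at this low level.

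**Figure D4:**
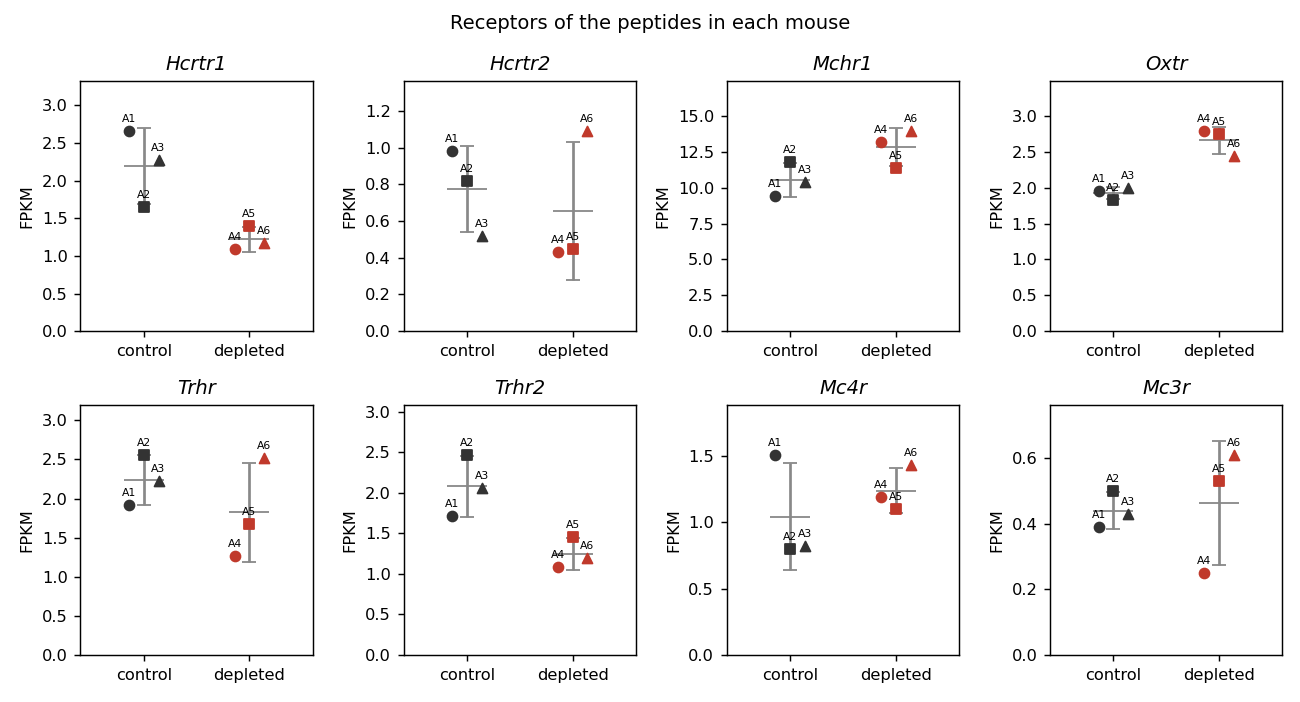
Receptors of the peptides in each mouse (FPKM, linear axes that start at 0 and differ between panels), with the mean ± SD of 3 mice. Hcrtr1 and Trhr2 are lower and Oxtr higher in each depleted mouse than in any control, and the other 5 receptors drawn (Hcrtr2, Mchr1, Trhr, Mc4r and Mc3r) overlap.

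The enzymes and granule proteins that turn precursors into peptides were all measured. The 13 genes had a median log2 difference of 0.033, and 1 of 13 had groups that did not overlap, against 17.6% of all genes tested. That gene, Pcsk1n, the precursor of an inhibitor of the proprotein convertase PC1/3, was 270.86, 216.63 and 253.88 FPKM in the controls and 189.23, 206.80 and 164.05 FPKM in the depleted mice (log2 difference -0.40, adjusted p = 0.370 with limma). Scg5, a chaperone of the convertase PC2, had a log2 difference of 0.25, Vgf, a granule protein, one of 0.15, and Qpctl, a glutaminyl cyclase, one of -0.23. Partners and breakdown genes of the same peptides, such as Npy, which arcuate Agrp neurons co-express, gave 8 tested genes with a median of -0.074, and in none did the groups lie apart.

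Further genes known from the hypothalamus were divided in direction. Of 50 such genes in 3 lists, other peptides, transcription factors and further genes, 26 were tested, 14 with a higher and 12 with a lower mean in the depleted mice, at a median of 0.021. The lists are not specific to the hypothalamus: Th and Slc18a2, for example, are also in the midbrain monoamine list. This median and these counts therefore do not speak for the hypothalamus alone. Groups lay apart for 3 of the 26, against 17.6% of all genes tested. These 3 are named here after their values were seen. Gnrh1, the precursor gene of gonadotropin-releasing hormone, was 0.52, 0.65 and 1.45 FPKM in the controls and 1.79, 3.21 and 3.05 FPKM in the depleted mice (log2 difference 0.98, adjusted p = 0.370 with limma). Kiss1, the kisspeptin gene, had a log2 difference of 0.30 (adjusted p = 0.510 with limma), and Prlr, the prolactin receptor gene, which is also a gene of the choroid plexus, one of -0.41 (adjusted p = 0.453 with limma). Only 3 of the 19 transcription factor genes, Six3, Lhx9 and Nkx2-2, passed the minimum level, with a median of 0.064, and the others stayed under the level that Nkx2-1 passed. Baiap3 had the lowest difference of the further genes, -0.65 (adjusted p = 0.447 with limma), with groups that overlapped, and Irs4 the highest, 0.22.

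Genes of the structures that border the hypothalamus or the cortex were read beside the 8 genes. Pituitary genes had a median of -1.79 that came from A3: their summed level was 4950 FPKM in A3 and 0.9 to 43.1 FPKM in the other 5 mice. All 8 tested genes of the choroid plexus had a lower mean in the depleted mice, at a median of -0.42. Groups lay apart for 3 of the 8, against 17.6% of all genes tested. Ttr, the transthyretin gene of the choroid plexus, was 172.74, 313.68 and 160.05 FPKM in the controls and 64.30, 40.92 and 59.89 FPKM in the depleted mice (log2 difference -1.91, adjusted p = 0.151 with limma). Ttr was thus 1 of 1350 genes, among 14385 tested, that were lower in every depleted mouse than in any control. The part of Ttr in the Hcrt result was not tested. Thalamus, striatum, basal forebrain and ependyma lists had medians of -0.17, -0.109, -0.052 and -0.125, midbrain monoamine genes 0.066 and cortical neuron genes -0.093. Microglia genes, the target of the depletion, had summed levels of 98.5 to 120 FPKM in the controls and 103 to 133 FPKM in the depleted mice, with a median of 0.107 over 9 genes. These levels were measured after the repopulation that the study reports.

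**Figure D5:**
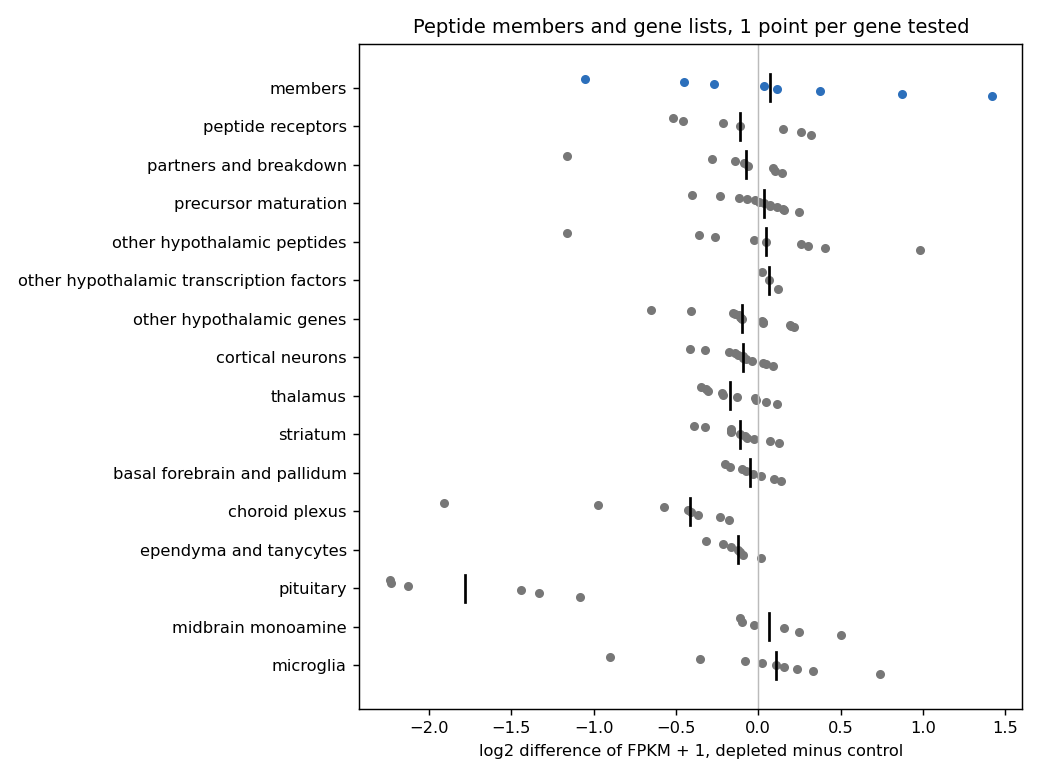
Log2 difference of FPKM + 1, depleted minus control, for the 8 genes (blue, described without a test) and the tested genes of each list (grey), 1 point per gene, with a black bar at each median. The 8 genes run from -1.06 (Hcrt) to 1.42 (Agrp), the hypothalamic lists have medians of 0.05, 0.064 and -0.101, and choroid plexus genes lie below 0, as do pituitary genes through A3.

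The genes whose log2 levels were most like those of Agrp and Hcrt over the 6 mice were not peptide genes. For Agrp they were Trmt6 (r = 0.9965), Tmsb4x (0.9925), Sec31a (0.991), Smarcad1 (0.9898) and Amph (0.989). For Hcrt they were Ehmt2 (r = 0.9968), Tmem97 (0.9931), Rrp7a (0.9879), Slc25a11 (0.9842) and 2900079G21Rik (0.9833). With 14385 genes compared over 6 mice, values of r this high say nothing of a link. The changes of these genes were smaller than those of the peptides: Trmt6 ranged from 10.79 to 11.59 FPKM in the controls and from 13.54 to 16.60 FPKM in the depleted mice, and Ehmt2 from 53.45 to 57.40 FPKM and from 47.48 to 51.23 FPKM.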

How the data were processed

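Poly(A) RNA of brain cortex from 6 mice was sequenced in paired 75-base reads. Per the submitters' processing notes and the methods of the study, the authors aligned reads with TopHat (mm9 is the build named), estimated levels with RSEM and applied TMM scaling between libraries. Tool versions are not given in the sources used here. The deposited values are FPKM to 2 decimals, 1 column per mouse, and 0 columns went unused. Raw counts were not analysed here.

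Levels were tested as log2(FPKM + 1) with limma 3.58.1 (R 4.3.3; lmFit and eBayes with trend, two-sided) over the 14385 genes that averaged 0.5 FPKM or more, and p-values were adjusted by Benjamini-Hochberg, with calls at 0.1. All 8 members passed that minimum, Agrp only through the depleted group. The script was checked on simulated data. Members, the 15 gene lists and the list rule (the 2 largest and 2 smallest differences, all receptors, and the 5 genes most like Agrp and Hcrt) were chosen with earlier results of these data known. Genes of the lists that are no members are named only where the text uses them. Otp was named after its values were seen.

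Depth was estimated as the smallest number of fragments at which low FPKM values of single-transcript genes (300 to 1500 bases, GENCODE M21) become whole multiples of 1 fragment. The rule was settled after the values were seen. For A5, whole multiples of its estimate scored about as well, and its fragment counts would rise by the same factor, so all depths and intervals are approximate. Whether mice of a group came from separate litters is not stated, so p-values measure the spread between these 6 mice. Genome coordinates of genes are not given, since the reference at hand was GRCm38. Of the 8 members, 7 had a promoter window in RefSeq.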

Additional observations from a re-analysis of the deposited data

How the results depend on the processing

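No paired analysis was possible because the labels number the mice 1 to 6 with no number shared between the groups. Leaving out A3 and A5 together and taking Hcrt relative to Pmch were alternatives added after seeing the data. Agrp was 3.29 with a pseudocount of 0.1, and Hcrt was -0.67 relative to Pmch of the same library. Without A3 and A5 together, Pmch was -0.14, Nkx2-1 1.34, and the medians were 0.10 for precursor maturation, 0.22 for other hypothalamic peptides and -0.56 for choroid plexus, with 8 genes called higher. The choroid plexus median was -0.73 with a pseudocount of 0.1. Array weights gave 13 genes called higher and 7 lower, with 1 gene called in the choroid plexus list (Ttr, adjusted p = 0.095 with limma), and turned Vgf to -0.011. Without the trend, 2 genes were called higher.

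With 1 mouse left out, 2 to 22 genes were called higher and 0 to 7 lower, most of them without A5, 0 to 1 microglia genes were called, and 3395 to 4700 genes had groups that did not overlap, since fewer mice overlap less often. Medians ran from -0.11 to 0.030 for partners and breakdown, -0.017 to 0.059 for precursor maturation, -0.034 to 0.32 for other hypothalamic peptides, 0.014 to 0.17 for transcription factors, -0.15 to 0.11 for the 50 hypothalamic genes and -0.52 to -0.34 for choroid plexus. Irs4 ran from -0.040 (without A2) to 0.41 and Vgf from -0.23 (without A4) to 0.44. Of 236 values under these alternatives for 17 named genes, 232 kept their direction and their side of the threshold. None of these genes passed the threshold in the main fit, and several alternatives leave the difference itself unchanged, so there was little room to move. Depth limits the low genes in A5, where Agrp, Otp and Gnrh1 rest on about 3, 2 and 5 fragments at the estimated depth.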

Other observations

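Otp, a homeobox factor of neuroendocrine hypothalamic neurons, was under the minimum level and outside the tests. Its level was 0.00, 0.24 and 0.30 FPKM in depleted A4, A5 and A6, against 0.69, 0.78 and 0.73 FPKM in the 3 controls. The means were 0.18 FPKM in the depleted mice and 0.733 FPKM in the controls. Otp rested on about 104 fragments over the controls and 11 over the depleted mice. These totals also differ through depth, estimated at 14440000 to 20680000 fragments in control libraries and 3520000 to 13740000 in depleted ones. Without the filter the log2 difference of Otp was -0.56 ± 0.11 (SE) with an adjusted p of 0.411 (limma), and it was named after its values were seen. Otp was thus lower in the depleted mice where Nkx2-1 had a higher mean.

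With the group means removed, the genes most like Agrp were Sec31a (r = 0.9986), Psmb4 (0.9981), Eif3i (0.9977), Rpl36al (0.9967) and Psmg1 (0.9963), and those most like Hcrt were 1700047E10Rik (0.9994), Pold3 (0.9973), Coq3 (0.9973), Ogfod3 (0.992) and Ifngr1 (0.9914), over 6 mice. Sec31a was in both Agrp lists, and no gene was in both Hcrt lists. Both lists of a gene draw on the same 6 mice. With 14385 genes compared, these values of r again say nothing of a link. Agrp in controls A1, A2 and A3 also rests on only about 2, 0 and 3 fragments.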
